A study of Mus musculus with 12 samples.

Results

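Glycolysis and the response to low oxygen were followed through 34 genes, picked by name from the 46403 genes of the deposited table: 17 glycolytic enzymes, 3 transporters of glucose or lactate, 7 kinases that set glycolytic flux, 3 genes induced by hypoxia and 4 genes for oxygen sensors or hypoxia-inducible factor (HIF) subunits. All 34 were found in the table and all 34 passed the filter on low counts, as did 23742 genes in all. Each of the 34 averaged at least 1 CPM, a count scaled to the size of its library, in every group.

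Polyadenylated RNA of whole right kidneys of untreated mice of unstated age was sequenced, and the series asks how Grhl2, a transcription factor of epithelial cells, bears on the growth of renal cysts. The Grhl2KO_Myc group (n = 4) is labelled as Grhl2 knockout with Myc overexpression and came from a cross of mice carrying HoxB7-Cre and Grhl2flox/+ with mice carrying R26StopFLMYC and Grhl2flox/flox. HoxB7-Cre acts in ureteric bud cells and thereby in the collecting duct, whereas the libraries hold RNA of all segments. The Myc group (n = 3) is labelled as Myc overexpression only, without a cross or Grhl2 alleles in the labels, and its library identifiers contain HET. The wildtype group (n = 5) was itself R26StopFLMYC with Grhl2 flox/flox, so it carried the transgene and the floxed alleles, with no Cre named in the labels. The labels do not tell whether every library stems from a different animal. Each group held at least 1 library with over 10 CPM of X-linked Xist and at least 1 with over 10 CPM of Y-linked Ddx3y, and so more than 1 animal. Xist passed this level in Grhl2KO_Myc 2, in Myc 1 and 2 and in wildtype 1, 2, 3 and 4. Ddx3y passed it in Grhl2KO_Myc 1 and 4, in Myc 3 and in wildtype 5, and Grhl2KO_Myc 3 passed neither. The makeup by sex thus differed between the groups, so sex and group cannot be fully told apart. The p-values measure the spread between these libraries, part of which may be technical.

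Glycolysis splits glucose into pyruvate, which is turned into lactate by lactate dehydrogenase or enters mitochondria through pyruvate dehydrogenase. In the kidney, proximal tubules mostly burn fatty acids and make glucose, whereas the distal nephron and the collecting duct depend more on glycolysis. The HIF alpha subunits are marked for destruction by oxygen-dependent prolyl hydroxylases, and when oxygen is low they persist and raise transcription of glycolytic enzymes, glucose transporters and angiogenic factors. MYC binds E-box sequences at many of the same metabolic genes.

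Total counts per library were 75187006 to 108164810 in Grhl2KO_Myc kidneys, 70608817 to 101043826 in Myc kidneys and 52973520 to 98713157 in wildtype kidneys. As a check of the labels, Grhl2 stood at 18.5, 19.0, 24.3 and 22.3 CPM in Grhl2KO_Myc kidneys, at 28.5, 33.0 and 28.2 CPM in Myc kidneys and at 29.2, 24.9, 25.6, 23.9 and 25.2 CPM in wildtype kidneys. Grhl2 fell against Myc kidneys (log2 fold change -0.51, edgeR adjusted p = 0.044) and was not called against wildtype kidneys (log2 fold change -0.29, edgeR adjusted p = 0.082). Mouse Myc averaged 30.1 ± 2.23 CPM in Grhl2KO_Myc, 23.6 ± 4.24 CPM in Myc and 26.7 ± 6.06 CPM in wildtype kidneys (SD, n = 4, 3 and 5). It was called in no comparison. Whether transcripts of the transgene were counted under this mouse gene is not stated, so these values do not show whether it was expressed. Kidney markers were present, with only Pvalb of the distal convoluted tubule list under 1 CPM in every library. Libraries Grhl2KO_Myc 3, Grhl2KO_Myc 4 and wildtype 4 stood apart, with a summed level of 25 proximal tubule markers of 2318 to 2503 CPM against 4486 to 7744 CPM in the other 9. Myc 1 stood apart in another way, since 3 gene models, Yam1, Lars2 and the ribosomal RNA copy Rn18s-rs5, took 5.55% of its counts, against 0.160% to 0.581% in the other 11 libraries, and it differed from Myc 2 and Myc 3 by a chi-square of 155 and 249 per degree of freedom, the largest values among replicate pairs. Counts of called genes among the 34 are given below with and without these 4 libraries. Sums, shares of transcripts and counts of genes without overlap are given with all 12 libraries only. A fall of a cell type's transcripts in bulk tissue can come from fewer cells or from less RNA per cell, and these cannot be told apart.

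Promoters are shown for the 4 genes of the 34 that changed in Grhl2KO_Myc kidneys. The windows span 250 bases before to 50 bases after the annotated start and come from RefSeq, build GRCm38.p6. Capitals mark CACGTG, the core of the E-box to which MYC binds, and ACGTG and GCGTG, the core of hypoxia response elements, each on either strand, and every CACGTG holds an ACGTG on both strands. Eno2 is at chr6:124769624-124769923 on the minus strand, Ldha at chr7:46845554-46845853 on the plus strand, Slc16a1 at chr3:104638414-104638713 on the plus strand and Pfkfb2 at chr1:130715772-130716071 on the minus strand. For Ldha and Pfkfb2 the first of several listed starts is shown.
Eno2: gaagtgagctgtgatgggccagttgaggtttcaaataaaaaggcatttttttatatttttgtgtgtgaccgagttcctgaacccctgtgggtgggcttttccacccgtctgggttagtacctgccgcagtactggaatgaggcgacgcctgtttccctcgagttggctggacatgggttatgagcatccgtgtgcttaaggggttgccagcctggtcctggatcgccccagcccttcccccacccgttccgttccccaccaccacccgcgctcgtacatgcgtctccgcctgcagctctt
Ldha: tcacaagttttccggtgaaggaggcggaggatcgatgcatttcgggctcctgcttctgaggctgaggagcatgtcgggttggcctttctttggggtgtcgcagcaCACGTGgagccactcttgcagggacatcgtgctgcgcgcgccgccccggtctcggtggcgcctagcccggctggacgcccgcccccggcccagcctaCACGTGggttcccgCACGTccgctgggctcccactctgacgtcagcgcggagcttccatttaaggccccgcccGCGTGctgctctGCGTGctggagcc
Slc16a1: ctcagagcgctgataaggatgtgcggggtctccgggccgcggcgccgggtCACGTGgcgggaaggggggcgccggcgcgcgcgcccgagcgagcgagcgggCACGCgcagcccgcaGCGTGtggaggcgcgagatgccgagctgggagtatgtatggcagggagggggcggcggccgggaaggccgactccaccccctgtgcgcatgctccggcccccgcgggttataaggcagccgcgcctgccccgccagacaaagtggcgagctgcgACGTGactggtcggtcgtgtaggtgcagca
Pfkfb2: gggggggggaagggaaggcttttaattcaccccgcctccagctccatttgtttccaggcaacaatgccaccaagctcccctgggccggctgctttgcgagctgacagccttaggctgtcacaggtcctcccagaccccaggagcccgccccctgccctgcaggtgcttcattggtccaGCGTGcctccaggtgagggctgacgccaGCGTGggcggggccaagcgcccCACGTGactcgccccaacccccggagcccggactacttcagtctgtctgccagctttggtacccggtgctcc
The Eno2 window held none of these words, while the Ldha window held 2 CACGTG and the Slc16a1 and Pfkfb2 windows 1 each. RefSeq promoters were matched for 33 of the 34 genes (53 windows, Epas1 not among them). CACGTG was present in at least 1 window of 8 of the 33 genes (24.2%), against 8.09% of 27025 genes with a promoter in the table. By window it was in 8 of the 53, against 7.15% of 32851 promoters. ACGTG or GCGTG was present for 30 of the 33 genes (90.9%), against 46.7% of all genes. By window these were in 40 of the 53, against 43.8% of all promoters. The pattern AACNNGGTT, where N is any base, was found for 0 of the 33 genes, against 2.11% of all genes. By window it was in 0 of the 53, against 1.84% of all promoters. This pattern fixes the spacing between AAC and GGTT and was not shown to match grainyhead-type motifs. Motifs with another spacing were not searched, so these counts do not tell whether sites for Grhl2 are present or absent. A share by gene can rise with the number of windows per gene, here 53 for 33 genes against 32851 for 27025. Such matches describe letters in these windows and do not show binding.

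Levels per exon length, as CPM divided by exon length in kilobases (RPKM) and averaged over the 12 libraries, differed widely among the 34 genes. Ldhb, the lactate dehydrogenase subunit of oxidative tissues, was highest at 359 RPKM, followed by Gapdh at 292 RPKM, Pkm at 204 RPKM and Pgam1 at 166 RPKM. Ldha, the subunit of lactate-producing tissues, stood at 110 RPKM, close to Tpi1 at 108 RPKM and Eno1 at 105 RPKM. Vegfa, the vascular growth factor, was the most abundant of the genes that are not glycolytic enzymes at 42.7 RPKM, and Hif1a and Epas1, the alpha subunits of HIF-1 and HIF-2, stood at 27.2 and 22.7 RPKM. Eno2, the enolase known from neurons, stood at 3.99 RPKM, Pfkfb2 at 2.71 RPKM and Hk2, the hexokinase induced in growing cells, at 2.07 RPKM. Slc16a3, a lactate exporter, and Pfkfb1 closed the order at 1.16 and 0.744 RPKM. This order, and the shares per length given below, depend on the exon widths listed with the counts. These were 1570 bases for Ldhb and 4133 bases for Gapdh. Without division by width Gapdh was above Ldhb, at 1171 against 568 CPM on average in wildtype kidneys.

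**Figure D1:**
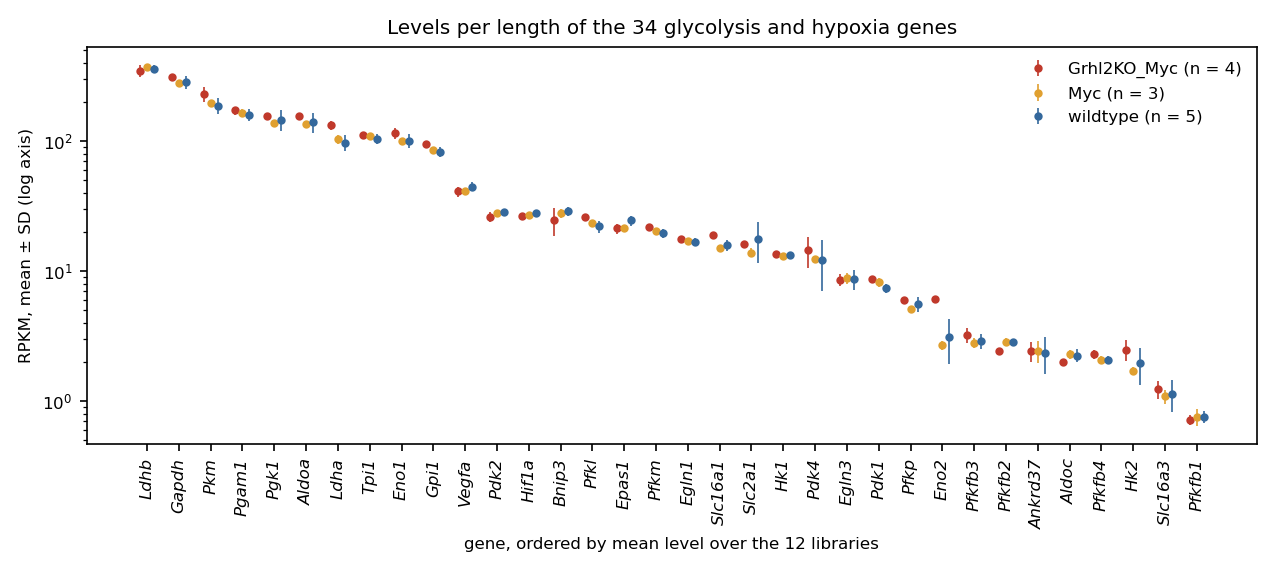
Mean level per exon length (RPKM, log axis) of the 34 genes in each group, ordered by the mean over 12 libraries, with SD bars over libraries (n = 4 Grhl2KO_Myc, 3 Myc, 5 wildtype). Ldhb leads at 359 RPKM and Pfkfb1 is last at 0.744 RPKM, and for most genes the 3 groups lie close together.

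The first comparison set kidneys with Grhl2 knockout and Myc overexpression against wildtype kidneys. In Grhl2KO_Myc kidneys Eno2, Ldha and Slc16a1 rose and Pfkfb2 fell, so that 4 of the 34 genes (11.8%) changed, against 6.67% of all genes tested. In the higher direction these were 3 of 34 (8.82%), against 4.06% of all genes, and in the lower direction 1 of 34 (2.94%), against 2.61%. Among the 34, 12 had an unadjusted p under 0.05 (22.0% of all genes did), and with this few genes each share rests on few calls. The other 30 genes did not pass, although 23 of the 34 log2 fold changes were above 0, and 15 of those of the 17 glycolytic enzymes. The median log2 fold change was 0.11 over the 34 genes and 0.15 over the enzymes, against -0.01 over all genes tested. The test was edgeR's quasi-likelihood F test with Benjamini-Hochberg adjustment over all genes tested, and a gene changed where its adjusted p was under 0.05.

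The count of 4 depended strongly on single libraries. It was 13 without wildtype 4, 2 without Grhl2KO_Myc 1 or 2 or any 1 of the 3 Myc libraries, and 1 without Grhl2KO_Myc 3 or 4 or wildtype 1, 2 or 3. With the proximal tubule score, the mean log2 level of 25 marker genes, as covariate it was 6 (17.6%), against 9.63% of all genes tested, with Eno2, Ldha, Pdk1, Pdk4 and Pfkm as higher and Hif1a as lower.

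**Figure D2:**
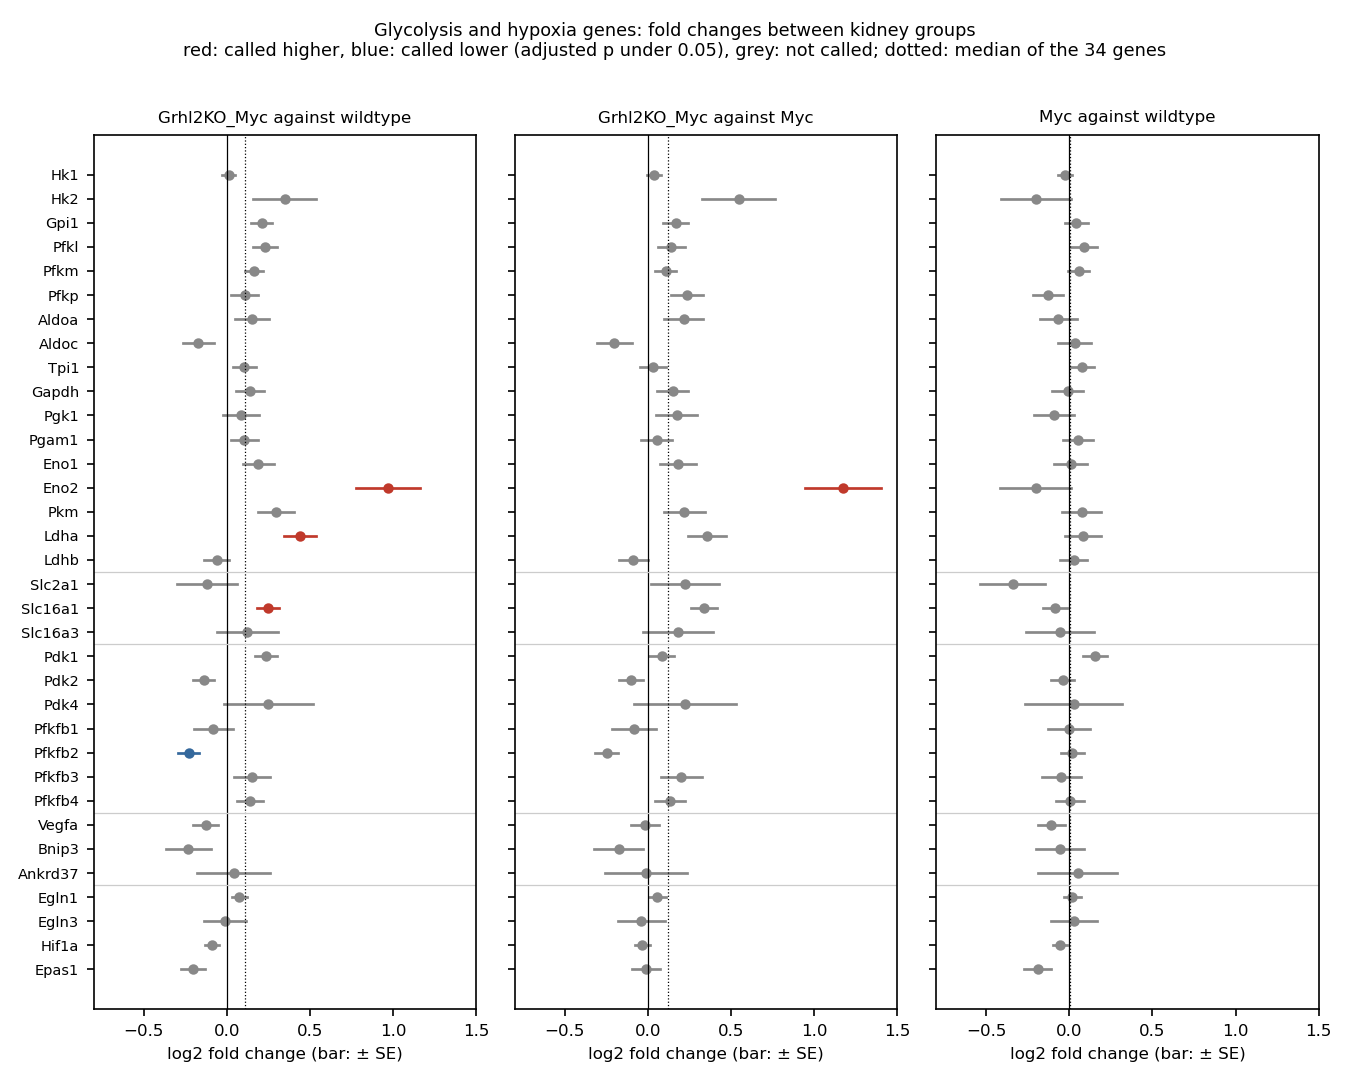
Log2 fold changes with standard errors of the 34 genes, grouped by role, for Grhl2KO_Myc against wildtype, Grhl2KO_Myc against Myc and Myc against wildtype (edgeR), in red where called higher, blue where called lower and grey where not called. Dotted lines mark the median of the 34 genes. Eno2 stands out at 0.97 and 1.17 in the comparisons with Grhl2KO_Myc kidneys, and the Myc against wildtype values gather around 0.

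Eno2 lies on chromosome 6 from 124760053 to 124769673 on the minus strand (mm10, ENSMUSG00000004267.16) and encodes the enolase that turns phosphoglycerate into phosphoenolpyruvate, mostly in neurons and neuroendocrine cells. Eno2 stood at 28.4, 26.9, 27.8 and 31.2 CPM in Grhl2KO_Myc kidneys, against 13.02, 11.7, 12.04, 24.4 and 11.9 CPM in wildtype kidneys. All 4 knockout libraries were above all 5 wildtype libraries, among which wildtype 4 was far above the rest. The rise was 1.96-fold (log2 fold change 0.97, SE 0.19, edgeR adjusted p = 0.012). It was called in each of the 20 alternative fits, with adjusted p between 5.2e-06 without wildtype 4 and 0.041 without Grhl2KO_Myc 4. With the proximal tubule score as covariate the log2 fold change was 0.81 (edgeR adjusted p = 0.0032), and without the 3 libraries low in these transcripts it was 1.18 (edgeR adjusted p = 0.00019).

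Eno1 is the main enolase of the kidney, and Eno2 supplied a small part of enolase transcripts per length. That part was 5.04%, 4.75%, 4.21% and 4.76% in Grhl2KO_Myc kidneys, 2.40%, 2.21% and 2.62% in Myc kidneys and 2.71%, 2.31%, 2.54%, 3.84% and 2.19% in wildtype kidneys. The share in Grhl2KO_Myc kidneys did not overlap with either other group. Eno1 itself was not called (log2 fold change 0.19, edgeR adjusted p = 0.26), and its counts may share reads with Eno1b, a near-identical copy listed at 21.5% of its level.

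Ldha lies on chromosome 7 from 46841475 to 46855627 on the plus strand (ENSMUSG00000063229.15). It stood at 362, 373, 416 and 425 CPM in Grhl2KO_Myc kidneys, against 253, 267, 268, 350 and 315 CPM in wildtype kidneys. Every knockout library was above every wildtype library, and wildtype 4 was again the highest of its group. The rise was 1.36-fold (log2 fold change 0.44, SE 0.098, edgeR adjusted p = 0.021). The call ended without Grhl2KO_Myc 3, Grhl2KO_Myc 4, wildtype 1, wildtype 2 or wildtype 3, with adjusted p of 0.0503 to 0.070. Ldhb was not called, at 545 ± 59.0 CPM in Grhl2KO_Myc and 568 ± 36.1 CPM in wildtype kidneys (SD, n = 4 and 5; log2 fold change -0.06, edgeR adjusted p = 0.69). Ldha made up 27.7 ± 3.70% of the Ldha and Ldhb transcripts per length in Grhl2KO_Myc kidneys, 21.8 ± 1.12% in Myc kidneys and 21.2 ± 2.90% in wildtype kidneys. Within each group that holds them, the share was highest in the libraries low in proximal tubule transcripts, at 30.9% and 30.8% in Grhl2KO_Myc 3 and 4 and 26.1% in wildtype 4. The part of cell makeup in this share was not tested.

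None of the other 15 enzymes was called by edgeR, while DESeq2 also called Gpi1 and Pfkl as higher. Hk2, which starts glycolysis by phosphorylating glucose, stood at 11.6, 13.6, 16.9 and 17.3 CPM in Grhl2KO_Myc kidneys, against 11.4, 9.95, 8.67, 18.0 and 10.4 CPM in wildtype kidneys (log2 fold change 0.35, edgeR adjusted p = 0.31). The groups overlapped through wildtype 4, without which the log2 fold change was 0.56 (edgeR adjusted p = 0.013). Pfkm, a phosphofructokinase subunit, was above all wildtype libraries in every knockout library, at 65.4, 64.1, 63.8 and 66.6 CPM in Grhl2KO_Myc kidneys against 59.6, 59.9, 59.4, 49.7 and 61.4 CPM in wildtype kidneys, but was not called (log2 fold change 0.16, edgeR adjusted p = 0.11), except without wildtype 4 and with the proximal tubule score as covariate. Gpi1, the isomerase that follows hexokinase, and Pfkl, the liver-type phosphofructokinase, missed the threshold with log2 fold changes of 0.21 and 0.23 (edgeR adjusted p = 0.076 and 0.078). The log2 fold changes of the remaining uncalled enzymes lay between -0.17 for Aldoc, a brain aldolase, and 0.29 for Pkm, the pyruvate kinase outside liver and red cells (edgeR adjusted p = 0.32 and 0.13). Of these, Pgk1 and Pgam1 may share reads with the copies Pgk1-rs7 and Pgam1-ps2, listed at 33.6% and 18.1% of their levels, so their values are uncertain.

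Among the transporters, Slc16a1, which encodes the lactate and pyruvate carrier MCT1, rose. It stood at 85.3, 83.6, 80.7 and 85.9 CPM in Grhl2KO_Myc kidneys, against 62.6, 67.6, 73.6, 80.8 and 68.2 CPM in wildtype kidneys. The groups met at wildtype 4, just above Grhl2KO_Myc 3. The rise was 1.19-fold (log2 fold change 0.25, SE 0.067, edgeR adjusted p = 0.044). It remained called with RLE scaling, without wildtype 4, without the 3 libraries low in proximal tubule transcripts and with DESeq2, and was lost in the other 16 alternative fits, including those that left out any other single library (edgeR adjusted p 0.057 to 0.12). Slc2a1, the glucose transporter GLUT1, stood at 55.7, 54.2, 57.8 and 59.8 CPM in Grhl2KO_Myc kidneys, against 53.2, 49.0, 50.3, 99.8 and 56.4 CPM in wildtype kidneys (log2 fold change -0.12, edgeR adjusted p = 0.75). Its direction turned on wildtype 4, since the value without that library was 0.12. Slc16a3 was not called (log2 fold change 0.12, edgeR adjusted p = 0.74).

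Of the kinases that set flux, Pfkfb2, a bifunctional enzyme that makes and degrades the activator of phosphofructokinase, fell. It stood at 17.1, 18.1, 18.2 and 16.9 CPM in Grhl2KO_Myc kidneys, against 22.7, 19.7, 20.5, 19.4 and 20.7 CPM in wildtype kidneys. All knockout libraries were below all wildtype libraries (log2 fold change -0.23, SE 0.062, edgeR adjusted p = 0.048). The call held with RLE scaling, without wildtype 4 and with DESeq2, and was lost in the other 17 alternative fits, including those without any other single library (edgeR adjusted p 0.053 to 0.13). Pfkfb2 overlaps Yod1 on the other strand, and reads of the pair cannot be told apart without strand. In all, 16 of the 34 genes overlap an annotated gene on the other strand and share this limit, the others being Hk1, Hk2, Gpi1, Pfkm, Pfkp, Aldoa, Tpi1, Gapdh, Slc2a1, Pdk2, Pfkfb1, Pfkfb3, Bnip3, Ankrd37 and Hif1a. The Pfkfb2 share of the 4 Pfkfb transcripts per length was 28.0 ± 1.08% in Grhl2KO_Myc, 33.7 ± 2.27% in Myc and 33.1 ± 1.99% in wildtype kidneys. Pdk1, which switches off pyruvate dehydrogenase and is a known HIF target, stood at 69.0, 70.6, 67.1 and 63.4 CPM in Grhl2KO_Myc kidneys, against 55.4, 56.8, 51.5, 58.5 and 64.4 CPM in wildtype kidneys. The groups overlapped at 1 library each and the call was just missed (log2 fold change 0.24, SE 0.066, edgeR adjusted p = 0.0507). Among the fits that leave the replicate numbers out, Pdk1 passed without wildtype 4 or wildtype 5, with the proximal tubule score as covariate and with DESeq2 (adjusted p = 0.034, 0.028, 0.040 and 0.019). Pdk2, Pdk4, Pfkfb1, Pfkfb3 and Pfkfb4 were not called, with log2 fold changes between -0.14 for Pdk2 and 0.25 for Pdk4, a starvation-induced kinase that ran from 34.6 to 65.0 CPM in Grhl2KO_Myc and from 23.2 to 69.3 CPM in wildtype kidneys. Pdk4 was called higher with the proximal tubule score as covariate, and Pfkfb3 without the 3 libraries low in these transcripts.

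**Figure D3:**
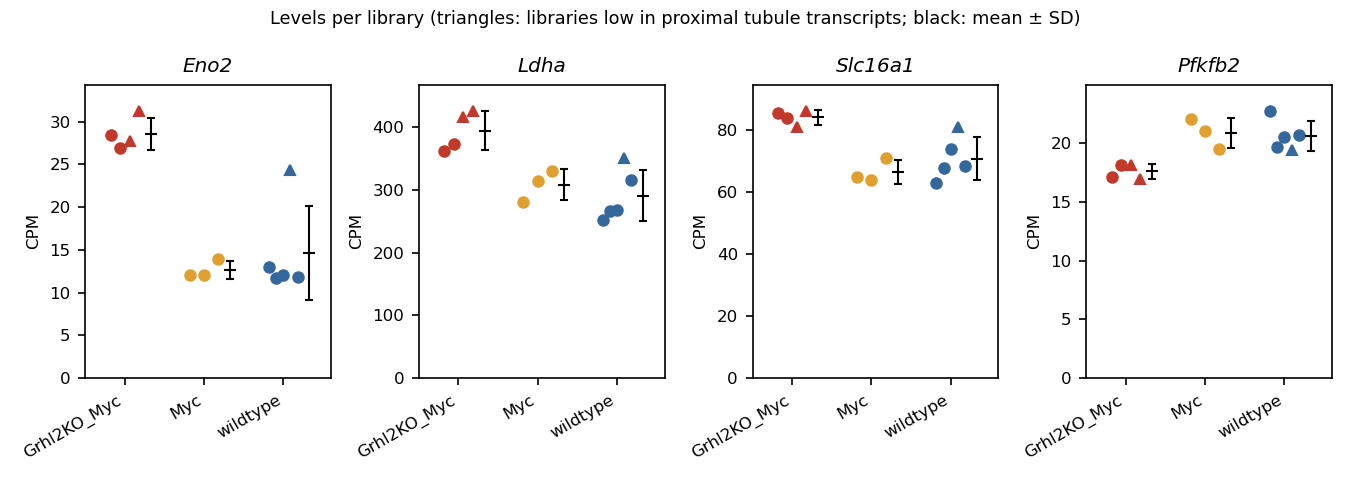
Level in CPM of Eno2, Ldha, Slc16a1 and Pfkfb2 in every library of Grhl2KO_Myc, Myc and wildtype kidneys, with group means and SD in black and triangles for the 3 libraries low in proximal tubule transcripts. Eno2 is above 26 CPM in all 4 Grhl2KO_Myc libraries, and in wildtype kidneys wildtype 4 stands alone at 24.4 CPM.

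None of the 3 hypoxia-induced genes and of the 4 oxygen sensors and HIF subunits was called by edgeR or DESeq2. Of them 2, Hif1a and Epas1, had an unadjusted p under 0.05, against 22.0% of all genes tested. Vegfa stood at 195, 183, 161 and 166 CPM in Grhl2KO_Myc kidneys, against 187, 201, 204, 167 and 201 CPM in wildtype kidneys (log2 fold change -0.13, edgeR adjusted p = 0.36). Egln3, the HIF prolyl hydroxylase that is itself induced by HIF, stood at 21.2, 20.2, 24.98 and 25.04 CPM in Grhl2KO_Myc kidneys, against 23.9, 27.1, 19.9, 17.7 and 26.6 CPM in wildtype kidneys (log2 fold change -0.01, edgeR adjusted p = 0.97). Both genes overlapped widely between the groups. Bnip3, a mitophagy receptor induced by hypoxia, was lowest in Grhl2KO_Myc 3 and 4 at 45.2 and 44.0 CPM, and was not called (log2 fold change -0.23, edgeR adjusted p = 0.34). Ankrd37, another HIF target, and Egln1, the main HIF prolyl hydroxylase, had log2 fold changes of 0.04 and 0.08 (edgeR adjusted p = 0.94 and 0.36).

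Hif1a, on chromosome 12 from 73901375 to 73947530, stood at 150, 155, 158 and 159 CPM in Grhl2KO_Myc kidneys, against 171, 162, 162, 172 and 160 CPM in wildtype kidneys. The groups did not overlap but were close, and the difference was not called (log2 fold change -0.09, SE 0.041, edgeR adjusted p = 0.22). With the proximal tubule score as covariate it was -0.12 (edgeR adjusted p = 0.046). Epas1, on chromosome 17 from 86753700 to 86833410, which in the kidney is found in endothelium and in the cells that make erythropoietin, stood at 115, 127, 107 and 105 CPM in Grhl2KO_Myc kidneys, against 118, 144, 142, 122 and 125 CPM in wildtype kidneys (log2 fold change -0.20, SE 0.073, edgeR adjusted p = 0.13). The ranges overlapped between 118 and 127 CPM. Over all 34 genes, Pfkm, Eno2 and Ldha lay wholly above the wildtype range (8.82%, against 5.67% of all genes tested) and Pfkfb2 and Hif1a wholly below it (against 3.81%), which makes 5 (14.7%), against 9.47% of all genes on either side.

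Wildtype 4 was often at the end of its group. It was the highest of the 5 wildtype libraries in 17 of the 34 genes and in 11 of the 17 enzymes, and the lowest in 12 and 5. It was the highest or the lowest in 85.3% of the 34 genes, against 64.7% of all genes tested, where it was the highest in 32.1% and the lowest in 32.6%. Without it 13 of the 34 genes (38.2%) changed in Grhl2KO_Myc kidneys, against 15.9% of all genes tested in that fit. The 12 that rose were Aldoa, Eno1, Eno2, Gpi1, Hk2, Ldha, Pdk1, Pfkm, Pfkp, Pgk1, Pkm and Slc16a1, and Pfkfb2 fell. Without all 3 libraries low in proximal tubule transcripts 6 rose (17.6%), against 9.48% of all genes, namely Eno2, Gpi1, Ldha, Pfkfb3, Pfkp and Slc16a1. Eno2, Ldha and Slc16a1 were thus shared by all 3 fits.

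The summed level of the 17 enzymes was 5670, 5490, 5725 and 5813 CPM in Grhl2KO_Myc kidneys, 4918, 5166 and 5309 CPM in Myc kidneys and 4578, 4978, 4797, 5697 and 5352 CPM in wildtype kidneys. The sum in Grhl2KO_Myc kidneys was above every Myc library and above 4 of the 5 wildtype libraries. The proximal tubule score was 0.26, 0.06, -1.07 and -0.95 in Grhl2KO_Myc, 0.07, 0.37 and 0.44 in Myc and -0.08, 0.61, 0.74, -1.14 and 0.69 in wildtype kidneys. Wildtype 4 thus had both the lowest score and the highest enzyme sum of its group, while Grhl2KO_Myc 1 and 2 had high enzyme sums with scores near the middle. The part of proximal tubule content in the enzyme sum was not tested.

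**Figure D4:**
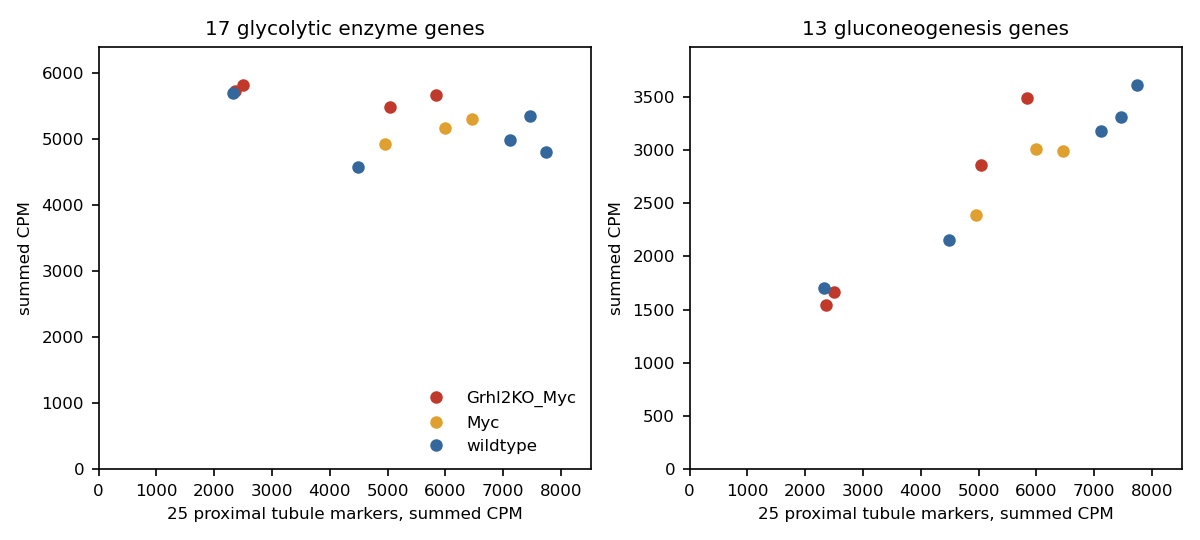
Summed CPM of the 17 glycolytic enzymes (left) and of 13 gluconeogenesis genes (right) against the summed CPM of 25 proximal tubule markers, with 1 point per library. The enzyme sum is highest in Grhl2KO_Myc 4 at 5813 CPM, and the proximal tubule sum is lowest, at 2318 to 2503 CPM, in Grhl2KO_Myc 3, Grhl2KO_Myc 4 and wildtype 4.

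Among the cell type marker lists, between Grhl2KO_Myc and wildtype kidneys 3 of 6 podocyte (50%), 3 of 8 endothelium (37.5%), 1 of 4 tested skeletal muscle (25%) and 2 of 25 proximal tubule markers (8%) were lower, against 2.61% of all genes tested. The skeletal muscle call was Mb, which stayed under 1 CPM in every library. Of 12 collecting duct markers 1 was higher and 2 were lower, and 1 of 7 tested macrophage and lymphocyte markers, Ptprc, was higher. No distal convoluted tubule marker was called, yet all 5 had log2 fold changes below 0 (median -0.50). All 5 had an unadjusted p under 0.05, against 22.0% of all genes tested. Their score was -0.60 to -0.49 in Grhl2KO_Myc, 0.28 to 0.38 in Myc and -0.22 to 0.75 in wildtype kidneys. It did not overlap between Grhl2KO_Myc kidneys and either other group. All 25 proximal tubule and all 7 thick limb markers were below 0 as well (median -0.52 and -0.24). No marker of the thick limb, fibroblast and smooth muscle, red blood cell, fat, adrenal cortex or urothelium lists was called. No marker was at 0 in all libraries, and Cd3e, Lep, Ucp1, Mb, Cyp11a1, Cyp11b1 and Cyp11b2 were under 1 CPM in each. The part of these lists in the results for the 34 genes was not tested.

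The second comparison set Grhl2KO_Myc against Myc kidneys. The labels do not give the Grhl2 alleles of the Myc group, so whether this comparison isolates the knockout is not known. It shares its Grhl2KO_Myc libraries with the first. Eno2 alone rose, which is 1 of 34 (2.94%), against 0.842% of all genes tested. Eno2 stood at 28.4, 26.9, 27.8 and 31.2 CPM in Grhl2KO_Myc kidneys, against 12.1, 12.1 and 13.9 CPM in Myc kidneys. With every knockout library well above every Myc library, the rise was 2.25-fold (log2 fold change 1.17, SE 0.23, edgeR adjusted p = 0.035). The log2 fold change stayed between 1.13 and 1.23 without any single library, but the call was lost with a term for Ddx3y (edgeR adjusted p = 0.060), without any single Grhl2KO_Myc library (0.063 to 0.10), without any single Myc library (0.083 to 0.17) and without wildtype 1 (0.052). Without wildtype 4, 3 of the 34 rose, Eno2, Pfkp and Slc16a1, against 2.96% of all genes tested in that fit. Without the 3 libraries low in proximal tubule transcripts Eno2 and Slc16a1 rose, against 1.33% of all genes, and DESeq2 called Eno2 and Slc16a1 as higher and Pfkfb2 as lower, against 3.45%.

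Slc16a1 stood at 64.8, 63.7 and 70.9 CPM in Myc kidneys, below all 4 Grhl2KO_Myc libraries, and was not called (log2 fold change 0.34, SE 0.077, edgeR adjusted p = 0.071). Ldha stood at 281, 313 and 329 CPM in Myc kidneys, again below every Grhl2KO_Myc library (log2 fold change 0.36, SE 0.11, edgeR adjusted p = 0.19). Pfkfb2 stood at 22.1, 21.02 and 19.5 CPM in Myc kidneys, above every Grhl2KO_Myc library (log2 fold change -0.25, SE 0.070, edgeR adjusted p = 0.14). These 3 genes differed in the same direction as against wildtype kidneys, without passing the test. Across the 34 genes 12 lay wholly above the Myc range (35.3%), against 8.95% of all genes tested, and 1, Pfkfb2, wholly below (2.94%, against 7.89%), which makes 13 (38.2%), against 16.8% on either side. Genes that vary together over libraries are not independent, and no test was made of this count. Cell type markers moved as well. Wholly below the Myc range were 7 of 25 proximal tubule, 3 of 7 thick limb and 3 of 5 distal convoluted tubule markers. Of 12 collecting duct markers 6 lay wholly below it and 3 wholly above. Of 7 tested macrophage and lymphocyte markers 2 lay wholly above it. Over all genes tested, 7.89% lay wholly below it and 8.95% wholly above. Aqp4, Atp6v0d2 and Avpr2 of the collecting duct list were called lower (25%, against 0.484% of all genes tested). The part of these cell types in the count of 13 was not tested. Of the 12 genes of the 34 wholly above the Myc range, 10 were enzymes, namely Hk2, Gpi1, Pfkl, Pfkm, Pfkp, Aldoa, Gapdh, Pgk1, Eno2 and Ldha. The other 2 were Slc2a1 and Slc16a1. The median log2 fold change was 0.12, against 0.00 over all genes tested. Hk2 was at 9.33, 10.5 and 10.7 CPM and Slc2a1 at 48.2, 45.0 and 53.1 CPM in Myc kidneys (log2 fold change 0.55 and 0.22, edgeR adjusted p = 0.31 and 0.68). Pdk1 stood at 59.2, 68.8 and 63.4 CPM, Vegfa at 186, 167 and 182 CPM, Egln3 at 22.9, 21.8 and 25.9 CPM and Hif1a at 157, 161 and 159 CPM in Myc kidneys, and all overlapped with Grhl2KO_Myc kidneys.

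The third comparison set Myc against wildtype kidneys. By edgeR 0 of the 34 genes changed, against 0.00421% of all genes tested, and by DESeq2 also 0, while 2 of the 34 had an unadjusted p under 0.05, against 4.62% of all genes. Without the 3 libraries low in proximal tubule transcripts it was also 0, against 0.00417% of all genes. The median log2 fold change was 0.00. None of the 34 lay wholly above the wildtype range (against 2.22% of all genes, and 3.57% on either side). Epas1, at 117, 110 and 116 CPM in Myc kidneys, was the one gene wholly below the wildtype range (2.94%, against 1.34% of all genes), and was not called (log2 fold change -0.19, unadjusted p = 0.034, edgeR adjusted p = 0.999). Eno2 had a log2 fold change of -0.20 and Slc2a1 of -0.34 in Myc kidneys, and each was highest in wildtype 4 among the wildtype libraries.

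**Figure D5:**
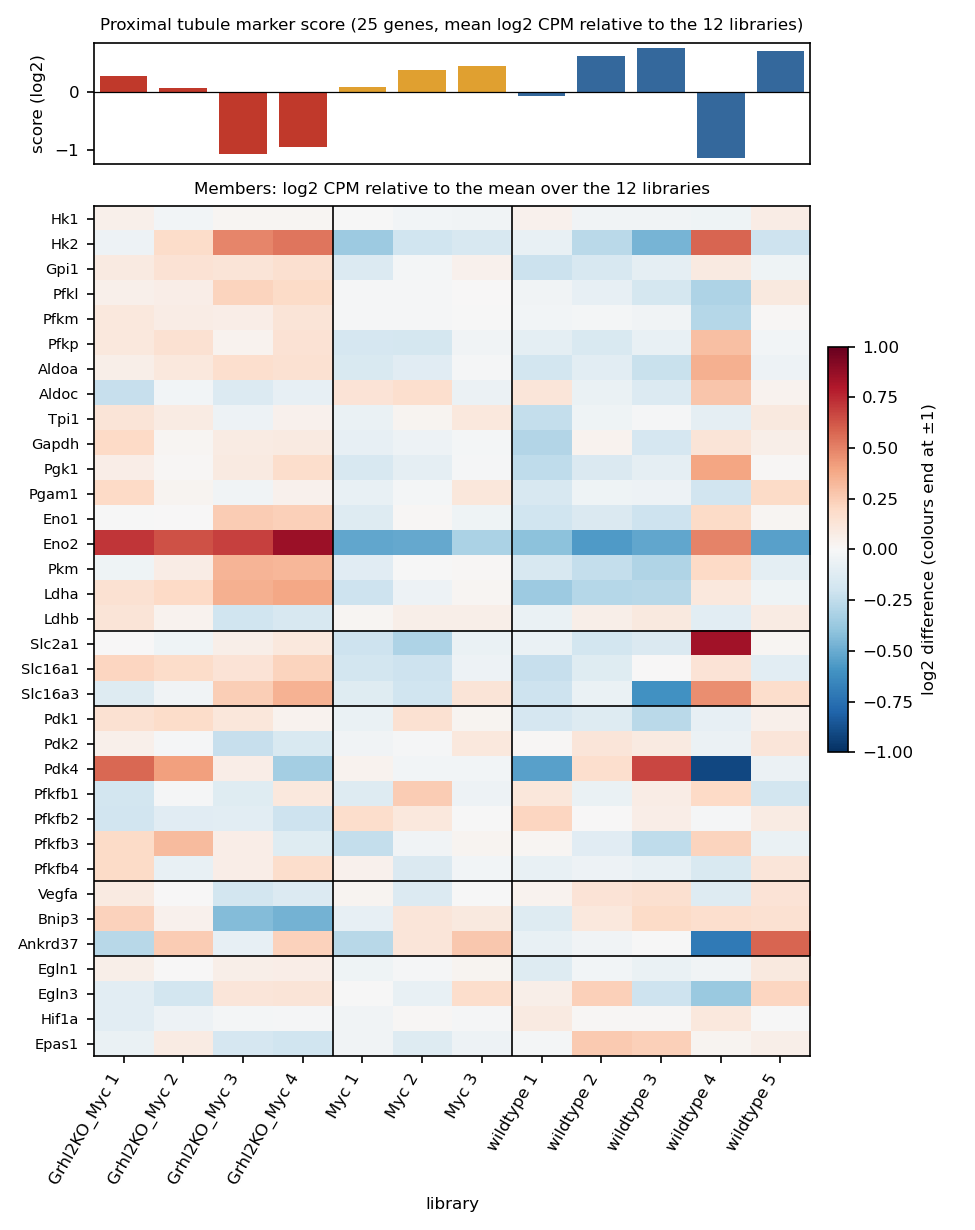
Log2 level of each of the 34 genes in each of the 12 libraries relative to the gene's mean over the libraries, with genes grouped by role and Grhl2KO_Myc, Myc and wildtype libraries side by side, under bars of the proximal tubule score of each library. Colours end at a log2 difference of 1 in either direction. Eno2 is high in the 4 Grhl2KO_Myc libraries and in wildtype 4, and Slc2a1 is high in wildtype 4.

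Other genes of the pathways were followed in 6 lists. Of 21 other glycolysis genes, 3 rose in Grhl2KO_Myc against wildtype kidneys, Tigar and Adpgk among them, and Slc2a4 fell (4 of 21, 19%, against 6.67% of all genes tested). The median log2 fold change was -0.03. Tigar, a phosphatase that lowers glycolytic flux, averaged 9.24 ± 0.67 CPM in Grhl2KO_Myc and 6.58 ± 0.48 CPM in wildtype kidneys (SD, n = 4 and 5; edgeR adjusted p = 0.0027), and Adpgk, which phosphorylates glucose with ADP, averaged 42.6 ± 2.31 CPM in Grhl2KO_Myc and 34.6 ± 1.75 CPM in wildtype kidneys (edgeR adjusted p = 0.0060). Slc2a4, the insulin-responsive transporter GLUT4, fell (log2 fold change -0.39, edgeR adjusted p = 0.049), a call lost without any single library other than Grhl2KO_Myc 1 and wildtype 4. Tigar and Adpgk were called against wildtype kidneys in each of the 20 alternative fits. The count of 4 was 7 without wildtype 4, against 15.9% of all genes tested in that fit. With the proximal tubule score as covariate it was 6, against 9.63% of all genes. Against Myc kidneys edgeR called 1 gene of the list, a call lost without Myc 1 or Myc 3. Without wildtype 4 it called 3 genes of the list, against 2.96% of all genes. DESeq2 called 3, Adpgk and Tigar among them, against 3.45% of all genes.

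A list of 13 genes covered the branches that leave glycolysis for pentoses, serine and, with Gfpt1 and Gfpt2, hexosamines. Of the 13, 5 rose in Grhl2KO_Myc against wildtype kidneys (38.5%, against 6.67% of all genes tested) and 0 fell. The median log2 fold change was 0.24. Psat1, an aminotransferase of serine synthesis, averaged 91.8 ± 6.996 CPM in Grhl2KO_Myc and 57.7 ± 5.47 CPM in wildtype kidneys (log2 fold change 0.67, edgeR adjusted p = 0.0010). Pgd, G6pdx and Tkt, enzymes of the pentose phosphate pathway, rose by 0.26, 0.28 and 0.25 on the log2 scale (edgeR adjusted p = 0.0069, 0.027 and 0.022), and Phgdh, the first enzyme of serine synthesis and the fifth of the called genes, by 0.38 (edgeR adjusted p = 0.038). Psat1 and Pgd were called in each of the 20 alternative fits. The count was 7 without wildtype 4, against 15.9% of all genes tested in that fit. Without the 3 libraries low in proximal tubule transcripts it was 4, namely Psat1, Pgd, Gfpt2 and Pgls, against 9.48% of all genes. The calls of G6pdx, Tkt and Phgdh were then lost. With the Ddx3y term or only the 2 groups compared the count was 3, Psat1, Pgd and Tkt, against 4.2% and 4.34% of all genes. It was 2 without Grhl2KO_Myc 3 or 4 or wildtype 2, against 3.53%, 3.18% and 3.79% of all genes. It was 3 without wildtype 1 or 3, against 3.95% and 3.73%. Against Myc kidneys edgeR called 0 of the 13, with 5 at an unadjusted p under 0.05, against 13.3% of all genes tested. DESeq2 called Psat1, and edgeR called Psat1 without wildtype 4, against 3.45% and 2.96% of all genes. With the proximal tubule score as covariate edgeR called Psph, against 1.1% of all genes. Without the 3 libraries low in proximal tubule transcripts it called Gfpt2, against 1.33%.

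Of 13 gluconeogenesis genes, G6pc3, a glucose-6-phosphatase found in all tissues, rose in Grhl2KO_Myc against wildtype kidneys (36.8 ± 1.59 CPM in Grhl2KO_Myc and 29.3 ± 1.55 CPM in wildtype kidneys, edgeR adjusted p = 0.0050). This was 1 of 13 (7.69%), close to the 6.67% of all genes tested, and the median log2 fold change was -0.09. Without wildtype 4 or Grhl2KO_Myc 2 and with DESeq2, Pck2 was called as well, against 15.9%, 5.28% and 11.6% of all genes tested. The gluconeogenesis sum was 1542 to 1700 CPM in the 3 libraries low in proximal tubule transcripts and 2152 to 3609 CPM in the other 9. It shares genes with the proximal tubule list, Fbp1, Pck1 and G6pc among them. Of 10 genes for pyruvate entry into mitochondria none was called by edgeR or DESeq2, and the median was -0.05. Of the 10, 2 had an unadjusted p under 0.05, against 22.0% of all genes tested. Pdpr was lower without wildtype 4 and without the 3 libraries low in proximal tubule transcripts. These 2 fits called 15.9% and 9.48% of all genes. Of 30 other hypoxia-induced genes, Stc2, a secreted glycoprotein, rose and Rora and Flt1 fell (edgeR adjusted p = 0.026, 0.032 and 0.025). This was 3 of 30 (10%), against 6.67% of all genes tested, and the median was -0.09. Flt1 is also a marker of the endothelium list, whose part in this was not tested. The count of 3 was 8 without wildtype 4 and 2 without the 3 libraries low in proximal tubule transcripts (Edn1 among them). It was 6 with the proximal tubule score as covariate and 5 with DESeq2. In that order, these fits called 15.9%, 9.48%, 9.63% and 11.6% of all genes tested. The count was 0 with the Ddx3y term and without Grhl2KO_Myc 1, 3 or 4 or wildtype 3, and 1 without wildtype 1. Of the 10 other genes for oxygen sensing and HIF subunits edgeR called 0. Of the 10, 4 had an unadjusted p under 0.05, against 22.0% of all genes tested. DESeq2, which called 11.6% of all genes, called 2 as lower, Arnt and Arnt2, the partners of the HIF alpha subunits. Their edgeR log2 fold changes were -0.11 and -0.25 (adjusted p = 0.068 and 0.056). Without wildtype 4 edgeR called 2, Rbx1 as higher and Arnt as lower, against 15.9% of all genes tested in that fit. In Myc against wildtype kidneys 0 genes of any of the 6 lists were called by edgeR or DESeq2. An unadjusted p under 0.05 was held by at most 4 of a list. These were 4 of the 30 other hypoxia-induced genes, followed by 3 of the 13 pentose and serine branch genes, against 4.62% of all genes.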

How the data were processed

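TruSeq RNA v2 libraries, whose reads carry no strand, were sequenced, per the labels' protocols. Alignment used HISAT2 and mm10, per the submitters' processing notes. How reads were counted, and with which annotation, was not given in the sources. The deposited table holds whole-number counts by gene and library, not normalized by the authors, beside each gene's exon width. Columns were assigned to libraries by the identifier in the titles, and 0 columns belonged to other samples. Replicates of a group differed by a chi-square of at least 12.7 per degree of freedom, so each library counted once.

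Members and gene lists were chosen with earlier results of these data known. All 12 libraries entered 1 edgeR 4.0.16 quasi-likelihood fit in R 4.3.3 (TMM scaling, default filter, 1 coefficient per group), adjusted by Benjamini-Hochberg over 23742 genes. Standard errors were derived from the fold change and its statistic. CPM used TMM-scaled library sizes, and RPKM divided them by exon width. Members called anywhere, and Hif1a, Epas1, Hk2, Ldha, Slc2a1, Vegfa, Pdk1 and Egln3, were given by library, and the other members by range or by group. Up to 4 called genes of each pathway list were named, except that results of some list genes are not reported here. The names beyond these rules (Pfkm, Phgdh, and genes called in 1 alternative) were chosen after their values were seen. The fit was first tested on simulated counts. Coordinates came from GENCODE M21 (mm10), which may differ from the authors' annotation, and promoters from RefSeq. Elob and Eloc were matched as Tceb2 and Tceb1. Alternatives were RLE scaling, no filter beyond 1 count, DESeq2 1.42.0, a fit of the 2 groups compared, a replicate block, a proximal tubule score or a term for Y-linked Ddx3y above 10 CPM as covariate, and leaving out single libraries or the 3 low in proximal tubule transcripts. List counts without wildtype 4 and without those 3 libraries were added after seeing the data. The Ddx3y term grouped Grhl2KO_Myc 3 with the libraries that held over 10 CPM of Xist.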

Additional observations from a re-analysis of the deposited data

Results flagged for a closer look

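Within groups of 4 or 5 libraries, 6 of the 68 combinations of gene and group held 1 library far from the others. The rule used flags about 1 in 20 sets of independent values. The 68 combinations share the same libraries, so their count cannot be set against that rate. The rate over all genes was not computed. Of these 6 values, 5 belonged to wildtype 4. In that library Slc2a1 stood at 99.8 CPM with the next wildtype library at 56.4 CPM, and Eno2 at 24.4 CPM with the next at 13.02 CPM. Aldoa stood at 504 CPM with the next at 381 CPM, and Pfkp at 64.6 CPM with the next at 51.2 CPM. Pfkm was the lowest in wildtype 4, at 49.7 CPM with the next at 59.4 CPM. Bnip3 was lowest in wildtype 1, at 55.6 CPM with the next at 65.7 CPM. Wildtype 4 was also 1 of the 3 libraries low in proximal tubule transcripts, and whether that bears on these values was not tested.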

How the results depend on the processing

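For Grhl2KO_Myc against wildtype kidneys the 4 genes called of 34 became 2 with no filter, 2 with a Ddx3y term, 2 with only the 2 groups compared, 6 with the proximal tubule score and 7 with DESeq2, and lay between 1 and 13 when single libraries were left out. The count over all genes, 1584, became 998 with the Ddx3y term, 995 with the 2 groups compared and 2648 with DESeq2, and lay between 750 and 3778 without single libraries. For Grhl2KO_Myc against Myc kidneys the 1 gene called of 34 became 0 with the Ddx3y term, 2 with the 2 groups compared, 2 without the 3 libraries low in proximal tubule transcripts and 3 with DESeq2, and 0 to 3 without single libraries. Over all genes 200 became 318 without those 3 libraries and 762 with DESeq2, and 70 to 703 without single libraries. For Myc against wildtype kidneys the 34 genes gave 0 in every alternative, and the 1 gene called over all genes became 0 with the Ddx3y term, 0 with the 2 groups compared and 42 with DESeq2, and 0 to 6 without single libraries. The cause of these shifts was not tested. Same-numbered libraries showed no clear tendency to deviate together (correlations -0.11 to 0.23), so the main fit treated them as unpaired. Weak correlations cannot exclude that same-numbered samples shared a batch. With the replicate number as a block, 993 genes were called for Grhl2KO_Myc against wildtype, 88 for Grhl2KO_Myc against Myc and 0 for Myc against wildtype, and 3, 1 and 0 of the 34. Against wildtype kidneys the block added Pdk1 (edgeR adjusted p = 0.039) and lost Slc16a1 and Pfkfb2, and it lost the 3 calls among other hypoxia-induced genes and, against Myc kidneys, the 1 call among other glycolysis genes.

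Directions that turned belonged to uncalled log2 fold changes. Without the 3 libraries low in proximal tubule transcripts they were 0.070 for Slc2a1 against wildtype, 0.077 for Epas1 and 0.079 for Vegfa in Grhl2KO_Myc against Myc, and 0.062 for Eno2, 0.012 for Hk2, -0.0027 for Pfkfb2 and -0.052 for Egln3 in Myc against wildtype. With the proximal tubule score they were 0.037 for Egln3 against wildtype, and 0.067 for Epas1, 0.090 for Vegfa, 0.012 for Egln3 and -0.019 for Slc2a1 against Myc. With the replicate block they were 0.052 for Egln3 against wildtype, 0.020 for Epas1 and 0.026 for Vegfa against Myc and -0.0015 for Pfkfb2 in Myc against wildtype, and with no filter 0.0051 for Egln3 against wildtype. Without single libraries, Grhl2KO_Myc against wildtype ran from -0.20 to 0.12 for Slc2a1 and -0.091 to 0.046 for Egln3. Grhl2KO_Myc against Myc ran from -0.070 to 0.025 for Epas1, -0.076 to 0.025 for Vegfa and -0.093 to 0.027 for Egln3, and Myc against wildtype from -0.28 to 0.064 for Eno2, -0.024 to 0.067 for Pfkfb2, -0.29 to 0.013 for Hk2 and -0.051 to 0.091 for Egln3.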

Other observations

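Hk2 took 11.2%, 12.9%, 15.6% and 15.7% of the hexokinase transcripts per length in Grhl2KO_Myc kidneys, 9.43%, 10.6% and 10.98% in Myc kidneys and 11.1%, 10.1%, 9.06%, 17.4% and 9.79% in wildtype kidneys. Its highest shares were in the 3 libraries low in proximal tubule transcripts. Library Grhl2KO_Myc 3 held 0.213 CPM of Xist and 0 CPM of Ddx3y, whereas each of the other 11 libraries held more than 10 CPM of 1 of them.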
